A study of Mus musculus with 12 samples.

Results

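The respiratory chain genes comprise 99 of the 50559 genes in the count table of the mouse retina. They were chosen by a rule on symbols that uses no measured values, though earlier results of these data were known. Of these members, 13 are encoded by mitochondrial DNA and 86 by nuclear chromosomes, and 11 symbols that mark pseudogenes of the nuclear members were left out. Complex I holds 7 mitochondrial and 36 nuclear members, complex II 4 nuclear members, complex III 1 and 9, complex IV 3 and 20, and complex V 2 and 17. Counts allowed a test in all 13 mitochondrial and in 84 nuclear members, the exceptions being the cytochrome c oxidase isoforms Cox7b2 and Cox8c.

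The respiratory chain passes electrons from NADH and succinate to oxygen in the inner mitochondrial membrane, and ATP synthase uses the proton gradient that results. Complexes I, III, IV and V are built from subunits of both genomes, so mitochondrial ribosomes must supply the mitochondrial subunits while nuclear subunits are imported. Photoreceptors are densely packed with mitochondria and are among the most energy-demanding cells of the body. Tetracyclines, the class that includes minocycline, can inhibit translation on mitochondrial ribosomes.

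Libraries came from retinas of wild-type C57BL6/J mice collected at P28, 4 weeks of age. Pups received 30 µg of an IgG isotype control or of APB5, a rat monoclonal antibody against mouse PDGFRβ that hinders the recruitment of pericytes to growing retinal vessels, on P1. Minocycline, an antibiotic with anti-inflammatory action, was injected daily at 45 mg/kg from P5 to P27 in a further group for each antibody. The 4 groups, called IgG, APB5, IgG+Mino and APB5+Mino, had 3 libraries each, from retinas of 3 mice per group. Each whole-retina library held 52740545 to 59411044 counts, deep enough that counting error on the mitochondrial share of counts was at most 0.0064 percentage points, a limit that covers counting error only.

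APB5 replicate 3 stood apart from the other libraries. The summed rod photoreceptor markers made up 1.98% of its normalised counts, against 6.73% to 10.1% in the other 11 libraries, and the summed Müller glia and gliosis markers made up 1.37%, against 0.402% to 0.598%. Microglia and macrophage markers made up 0.0830%, against 0.00424% to 0.0128%. Xist, the X-inactivation transcript of females, was high in all 3 IgG libraries, in none of the 3 IgG+Mino libraries, and in 1 library each of APB5 and APB5+Mino, replicate 3 in both. Sex and minocycline therefore cannot be told apart in IgG retinas. In bulk tissue, fewer cells of a type and less RNA per cell cannot be told apart either.

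The mitochondrial members lie on the circular mitochondrial chromosome of GRCm39, on the plus strand except ND6, and some share bases with a neighbour. The sequences of ATP8, an ATP synthase subunit, and ND4L, a complex I subunit, are shown because these short genes carried the highest mitochondrial fold changes below. Capitals mark the bases shared with ATP6 (43 bases, chrM:7927-7969) and with ND4 (7 bases, chrM:10167-10173), where a read cannot be given to a single gene by position alone.
ATP8, chrM:7766-7969: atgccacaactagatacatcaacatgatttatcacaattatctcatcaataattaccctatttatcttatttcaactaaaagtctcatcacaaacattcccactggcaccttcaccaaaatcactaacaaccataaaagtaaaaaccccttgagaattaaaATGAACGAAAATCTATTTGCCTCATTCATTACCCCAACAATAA
ND4L, chrM:9877-10173: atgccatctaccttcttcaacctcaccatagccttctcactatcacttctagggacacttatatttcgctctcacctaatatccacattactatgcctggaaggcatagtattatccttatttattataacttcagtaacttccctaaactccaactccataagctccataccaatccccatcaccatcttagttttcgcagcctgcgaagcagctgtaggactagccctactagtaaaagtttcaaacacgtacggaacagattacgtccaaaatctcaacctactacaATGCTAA
ND5 and ND6 overlap by 14 bases on opposite strands, and ATP6 and COX3 by 1 base. Whether counting used the strand is not stated, so reads over the ND5 and ND6 overlap are uncertain, as are mitochondrial reads that match nuclear copies of mitochondrial DNA.

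Transcripts of the mitochondrial members differed in level by over 2 orders of magnitude. In IgG retinas the mean level per kilobase of gene was highest for the cytochrome c oxidase subunits COX2, COX1 and COX3, at 9104, 7077 and 6112 CPM per kb, where CPM is the usual read count scaled to library size. Cytochrome b (CYTB), ND1 and ATP6 followed at 4078, 4067 and 3508 CPM per kb, and ND4, ND2, ND3 and ATP8 lay between 1240.4 and 1917 CPM per kb. ND5, ND4L and ND6 were lowest, at 812, 354 and 42.4 CPM per kb. ND6 is the only member transcribed from the light strand, and its RNA is known to lack the poly-A tail by which these libraries were selected.

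Mitochondrial transcripts took up a higher share of counts in both minocycline groups, while the nuclear share was lower in APB5+Mino than in APB5. The 13 mitochondrial members gave 3.38%, 3.71% and 4.99% of all counts in IgG replicates 1, 2 and 3. In IgG+Mino they gave 5.20%, 5.77% and 5.85%. The shares did not overlap between these groups. In APB5 the mitochondrial share was 5.75%, 4.01% and 4.57%, and in APB5+Mino it was 6.45%, 5.95% and 5.89%, again with no overlap.

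The 86 nuclear members together gave 0.82% to 0.96% of counts in IgG, 0.66% to 0.86% in IgG+Mino, 0.73% to 0.92% in APB5 and 0.53% to 0.65% in APB5+Mino. APB5+Mino lay below APB5 in every library, whereas the IgG+Mino range overlapped that of IgG. Mitochondrial counts per nuclear count were 4.58 ± 0.60 (SD, n = 3) in IgG, 7.66 ± 1.43 in IgG+Mino, 5.78 ± 1.01 in APB5 and 10.4 ± 0.70 in APB5+Mino. By group means the ratio was 1.67 times as high in IgG+Mino as in IgG and 1.80 times as high in APB5+Mino as in APB5. It ran from 4.96 to 6.90 in APB5 and from 9.87 to 11.2 in APB5+Mino. These shares are a description with no test.

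**Figure D1:**
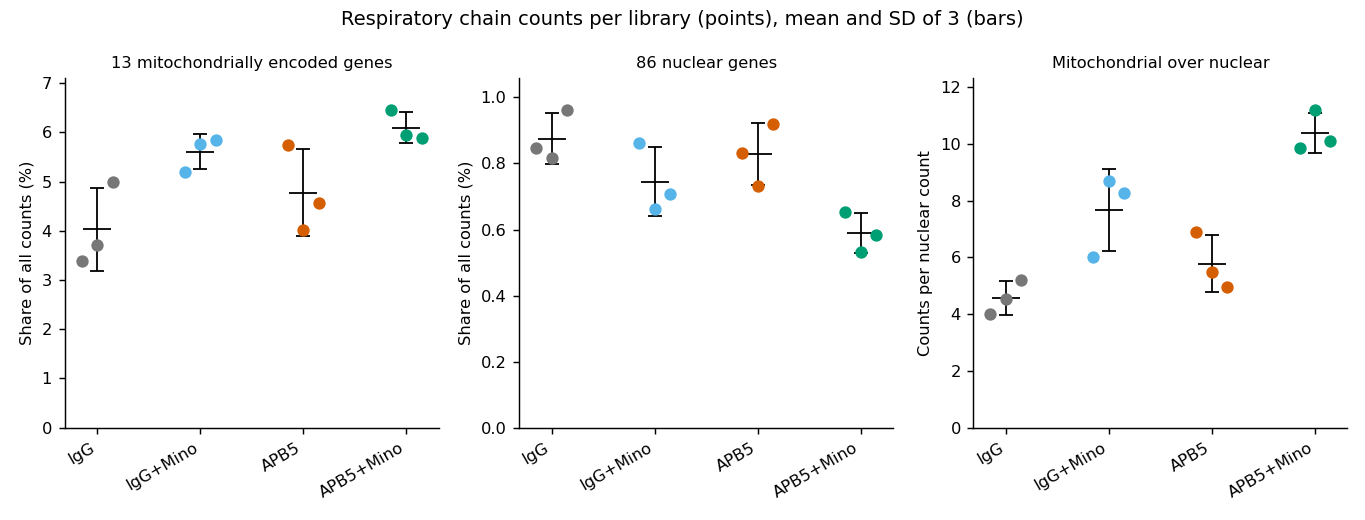
Share of all counts (%) taken by the 13 mitochondrial and the 86 nuclear members, and mitochondrial counts per nuclear count, by group. Points are libraries and bars the mean and SD of 3; APB5+Mino libraries sit at 9.87 to 11.2 mitochondrial counts per nuclear count, above the 4.96 to 6.90 of APB5.

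APB5+Mino against APB5 addresses how chain transcripts differ with minocycline in the retina that received the pericyte-depleting antibody. All 13 mitochondrial members had a positive log2 fold change, and 83 of 84 tested nuclear members had a negative one, the exception being cytochrome c1 (Cyc1, 0.12 ± 0.13), named after its value was seen. Of the mitochondrial members 1 was called higher, where 2.79% of all 20281 genes tested were, and 10 nuclear members were called lower, where 2.03% of all genes were. A call means that the p of edgeR's quasi-likelihood test, adjusted by Benjamini and Hochberg's method across every gene tested, was at most 0.05, at any fold. The median log2 fold change was 0.31 over the mitochondrial members and -0.54 over the nuclear members, beside -0.02 over all genes. ND4L and Atp5l were the called members that changed by at least 2-fold, which 1.66% of all genes did.

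ND4L rose in APB5+Mino retinas. Its level was 183, 161 and 99.4 CPM in APB5 replicates 1, 2 and 3 and 273, 420.1 and 402 CPM in APB5+Mino. All 3 treated libraries lay above all 3 untreated ones, and the difference was 1.30 ± 0.27 on the log2 scale (SE, adjusted p = 0.0476).

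ATP8, ND5 and ND4 came next and were not called. ATP8 measured 548, 301 and 221 CPM in APB5, against 959.7, 1037 and 883 CPM with minocycline (1.43 ± 0.33 on the log2 scale, adjusted p = 0.0514). ND5, a proton-pumping subunit of complex I, measured 2622, 1723 and 1343 CPM in APB5, against 3739.9, 4393 and 3745 CPM in APB5+Mino. Its groups did not overlap and its log2 fold change was 1.06 ± 0.28 (adjusted p = 0.0598). ND4 measured 4302, 2729 and 2586 CPM in APB5, against 5783, 5977 and 5614 CPM in APB5+Mino (0.85 ± 0.26, adjusted p = 0.0754).

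The other mitochondrial members differed less. CYTB, the mitochondrial subunit of complex III, and ATP6, the proton channel subunit of ATP synthase, had log2 fold changes of 0.72 and 0.69 and were higher in every APB5+Mino library than in any APB5 library. ND2, COX3, COX1, ND3, ND1, COX2 and ND6 lay between 0.07 and 0.31, with overlapping groups. COX2, the most abundant per kilobase, measured 7825, 5727 and 6259 CPM in APB5, against 8047, 6558 and 6739 CPM in APB5+Mino. In all, 6 of the 13 members did not overlap between groups on the higher side, beside 23.2% of all genes.

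IgG+Mino against IgG asks the same of retinas that received the control antibody, in libraries that share none with the comparison above. Here 12 of 13 mitochondrial members had a positive log2 fold change, with a median of 0.68 beside -0.01 over all 20143 genes tested. No member was called in edgeR's quasi-likelihood test, where 0.0298% of all genes were. Without adjustment 11 mitochondrial members were higher at p under 0.05, beside 4.98% of all genes, and DESeq2 called 3, beside 0.273% of all genes in either direction. Groups did not overlap on the higher side in 8 of 13 members, beside 6.88% of all genes.

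The same 3 genes led. ATP8 measured 188, 236 and 335 CPM in IgG replicates 1, 2 and 3 and 402, 922 and 901 CPM in IgG+Mino (1.56 ± 0.31 on the log2 scale, adjusted p = 0.585 by edgeR). ND4L measured 64.4, 86.3 and 165 CPM in IgG and 156, 336 and 345 CPM in IgG+Mino (1.42 ± 0.37). ND5 measured 1051, 1323 and 2068 CPM in IgG and 2088, 3884 and 3934 CPM in IgG+Mino (1.17 ± 0.29).

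IgG replicate 3 was the highest IgG library and IgG+Mino replicate 1 the lowest IgG+Mino library for each of these, so the groups nearly met, and for ND4L they overlapped. Without IgG replicate 3, 2 mitochondrial members were called, beside 13 of all 20548 genes. With Xist as a covariate the median was 0.34. In the same libraries 17 of 18 microglia and macrophage markers had a negative log2 fold change (median -0.56, 8 not overlapping), as had 14 of 15 endothelial markers (-0.32, 6 not overlapping). Of all genes 7.48% did not overlap on the lower side. The part of these markers was not tested. The remaining members ran from 0.96 for ND4 and 0.70 for ATP6 down to 0.21 for COX2, and ND6 measured -0.44 ± 0.25.

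The order of the genes was alike in the 2 minocycline comparisons, which have no library in common. Across the 13 genes, which are not independent since most are cut from a shared precursor RNA, the log2 fold changes had a Pearson r of 0.91 and a Spearman rho of 0.95. Across the 84 nuclear members the values were 0.17 and 0.47, and 76 had the same sign. Untreated libraries also differed among themselves in many of the same mitochondrial genes. From IgG replicate 1 to IgG replicate 3, ND4L went from 64.4 to 165 CPM, ND5 from 1051 to 2068 CPM and CYTB from 3274 to 6862 CPM. COX2 went from 5860 to 7011 CPM and ND6 from 30.6 to 16.5 CPM. Whether the order is particular to minocycline was not tested.

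**Figure D2:**
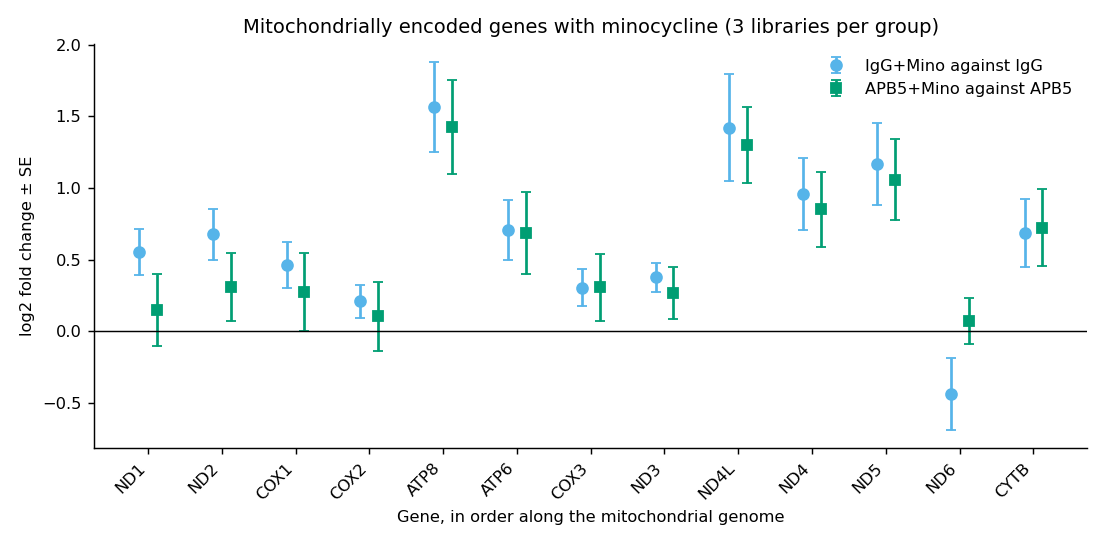
Log2 fold change ± SE of the 13 mitochondrial members with minocycline, in their order along the mitochondrial genome, on an IgG (circles) and an APB5 (squares) background. ATP8, ND4L, ND5 and ND4 are highest on both backgrounds, from 0.85 to 1.56, and ND6 is near or below 0.

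ATP8 is read from the same RNA as ATP6, and ND4L from the same RNA as ND4. ATP8 counts per 100 ATP6 counts were 10.4, 11.8 and 9.95 in IgG and 11.2, 23.0 and 22.5 in IgG+Mino, so IgG+Mino replicate 1 lay within the IgG range. They were 14.7, 14.4 and 10.8 in APB5 and 21.1, 24.8 and 22.3 in APB5+Mino, with no overlap. ND4L counts per 100 ND4 counts were 4.25, 5.91 and 3.84 in APB5 and 4.71, 7.03 and 7.16 in APB5+Mino, with overlap. ATP8 and ATP6 counts thus differed in their shift on the APB5 background, with no test made. These ratios were chosen after their values were seen.

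Nuclear members of all 5 complexes were lower on balance in APB5+Mino against APB5. The median log2 fold change was -0.54 over 36 members of complex I, -0.45 over 4 of complex II, -0.49 over 9 of complex III, -0.60 over 18 of complex IV and -0.57 over 17 of complex V. Called members numbered 4, 1, 0, 1 and 4 in that order. Groups did not overlap on the lower side in 67 of 84 nuclear members, beside 23.3% of all genes. Another 35 nuclear members had an adjusted p above 0.05 and up to 0.06, so the count of 10 stands at the edge of the threshold. Over all genes the log2 fold change rose with transcript length (Spearman rho 0.26). The rho was 0.34 in IgG+Mino against IgG and 0.28 in APB5+Mino against IgG+Mino. Nuclear members are shorter, with a median of 2257.5 bases against 3751 over all genes in this comparison. The part of length was not tested.

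The nuclear member with the smallest p was Cox4i2 (GRCm39 chr2:152595625-152606959, plus strand), the isoform of cytochrome c oxidase subunit 4 that is linked to low-oxygen responses. It measured 33.4, 30.3 and 31.5 CPM in APB5, against 18.7, 16.6 and 17.6 CPM in APB5+Mino, where the log2 fold change was -0.85 ± 0.10 (edgeR adjusted p = 0.0430). The summed pericyte and smooth muscle markers ran from 666 to 778 CPM in APB5, against 602 to 636 CPM in APB5+Mino. Taken singly, 14 of 15 tested markers had a negative log2 fold change, with a median of -1.28. The part of these markers in the Cox4i2 result was not tested.

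Small subunits of ATP synthase followed. Atp5mpl and Atp5md, membrane-sector subunits, fell by 0.83 and 0.79 on the log2 scale, and Atp5j2, subunit f, fell by 0.72. Atp5mpl measured 55.7, 47.7 and 64.7 CPM in APB5, against 35.5, 27.5 and 31.6 CPM in APB5+Mino. Atp5j2 measured 75.7, 65.8 and 86.7 CPM in APB5, against 52.0, 42.9 and 44.4 CPM in APB5+Mino. Every treated library was below every untreated one for both.

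Among accessory subunits of complex I, which surround its catalytic core, Ndufb3 fell by 0.66 on the log2 scale (46.3, 38.6 and 47.8 CPM without minocycline, 31.7, 25.9 and 26.4 CPM in APB5+Mino). The other called members, named after their values were seen, were Ndufa13, Ndufb7 and Ndufa5 of complex I, the membrane anchor Sdhd of complex II, and Atp5l. Their log2 fold changes were -0.72, -0.68, -0.69, -0.48 and -1.74. Atp5l, subunit g of ATP synthase, was at only 0.410 to 2.10 CPM in any library, and pseudogene copies of it are listed in the same table, so its reads are uncertain.

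Core subunits of complex I, which carry its redox centres, had a median nearer 0 than the accessory subunits in APB5+Mino against APB5. Over the 7 core nuclear subunits of complex I the median was -0.24 and none was called (smallest adjusted p = 0.0503 by edgeR). Over the 29 accessory subunits it was -0.59 with 4 called lower, beside 2.03% of all genes. In IgG+Mino against IgG the core and accessory medians were close, at -0.21 and -0.23. Sdha, the succinate-binding subunit of complex II, measured 294, 309 and 277 CPM in APB5, against 319, 268 and 275 CPM with minocycline, a difference of -0.03 ± 0.12 on the log2 scale. The difference between core and accessory subunits was not tested.

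Abundant nuclear members of each complex were not called. Atp5b and Atp5a1, the β and α subunits of the ATP synthase head, measured 848 to 972 and 567 to 620.2 CPM in APB5, against 697 to 826 and 466 to 543 CPM in APB5+Mino, with log2 fold changes of -0.25 and -0.24. Cox4i1 and Ndufa4 of complex IV had -0.61 and -0.35, Uqcrh and Uqcrc1 of complex III had -0.57 and -0.15, Sdhc of complex II had -0.43, and Ndufv1 of complex I had -0.06. The X-linked members Cox7b, Ndufa1 and Ndufb11 had -0.60, -0.61 and -0.48 and were not called either.

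Deviations of same-numbered APB5 and APB5+Mino libraries were weakly correlated (0.119 to 0.169), though the labels state no pairing. With the replicate number as a block no gene was called (smallest adjusted p = 0.0641 by edgeR), while 7125 of 20281 passed an unadjusted p under 0.05. The medians stayed at 0.34 for mitochondrial and -0.54 for nuclear members. The block thus ended every call in this comparison, those of ND4L and of the related genes below included. Leaving out APB5 replicate 1 or any APB5+Mino library left 0 members called, whereas leaving out APB5 replicate 2 or 3 gave 61 and 57 nuclear calls and 1 and 5 mitochondrial calls. Over all genes, 1 of 20887 was called without APB5 replicate 1, and 0 were called without any of the APB5+Mino libraries. Without APB5 replicate 2, 1996 of 20832 genes were called higher and 2189 lower. Without APB5 replicate 3 these numbers were 2730 and 2754 of 20621.

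Markers of other cells moved in the same libraries, and their part in these results was not tested. On the lower side, groups did not overlap in 18 of 18 microglia and macrophage markers and 12 of 16 Müller glia and gliosis markers. The same held for 12 of 15 pericyte and smooth muscle markers and 12 of 15 endothelial markers, beside 23.3% of all genes. It also held for 14 of 15 immediate early genes (median -2.29) and 7 of 13 pigment epithelium and melanocyte markers (median -1.68). Of 20 rod markers 0 lay wholly lower and 2 wholly higher, with a median of 0.20, where 23.2% of all genes lay wholly higher. That median includes APB5 replicate 3, which was low in rod markers. Summed rod markers made up 8.21%, 7.15% and 1.98% of normalised counts in APB5 replicates 1, 2 and 3. In APB5+Mino they made up 7.24%, 6.76% and 6.73%.

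**Figure D3:**
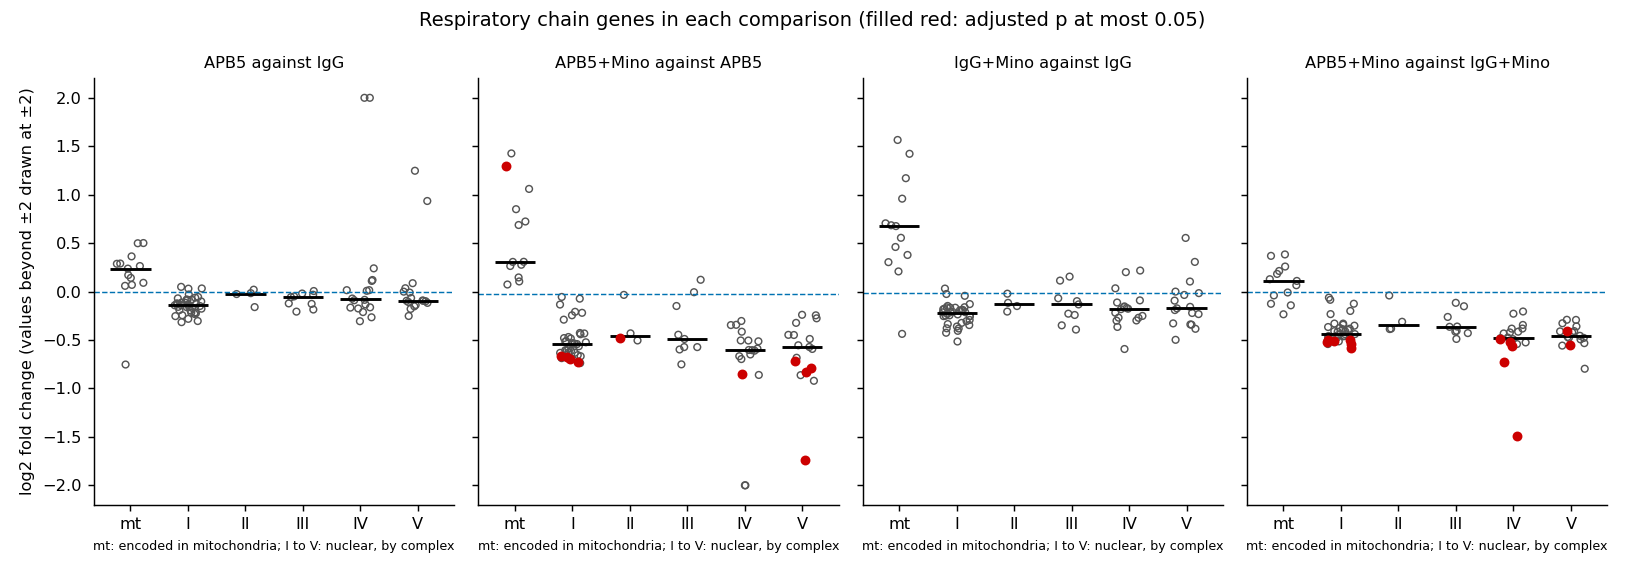
Log2 fold change of each tested member in 4 comparisons, by genome and complex. Black lines are medians, the dashed line is the median of all genes, filled points have an adjusted p of at most 0.05, and values beyond 2 are drawn at 2; with minocycline on the APB5 background the mitochondrial median is 0.31 and the 5 nuclear medians lie between -0.60 and -0.45.

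Nuclear members in IgG+Mino against IgG had a median of -0.20 and 75 of 84 had a negative value. None was called by edgeR or DESeq2, and 11 were lower at an unadjusted p under 0.05, beside 3.39% of all genes. Groups did not overlap on the lower side in 6 members, beside 7.48% of all genes.

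APB5+Mino against IgG+Mino sets the antibody groups side by side under minocycline, and it shares the APB5+Mino libraries with the comparison above. Here all 84 tested nuclear members had a negative log2 fold change, with a median of -0.42, and 13 were called lower, beside 3.28% of all 20049 genes tested. Only 1 of them, Cox8b, changed by at least 2-fold, as did 1.23% of all genes. No mitochondrial member was called by edgeR or DESeq2, and 1 was higher at an unadjusted p under 0.05. Of all genes, 4.8% were called higher by edgeR, 17.6% were called in either direction by DESeq2, and 14.6% were higher at the unadjusted threshold. The mitochondrial median was 0.11. Groups did not overlap on the lower side in 61 nuclear members (17.2% of all genes) and on the higher side in 1 mitochondrial member (18% of all genes). The rod markers made up 8.52% to 8.97% of normalised counts in IgG+Mino and 6.73% to 7.24% in APB5+Mino, with 9 of 20 called lower. Of other lists, 10 of 15 immediate early genes (median -1.01), 7 of 18 microglia and macrophage markers (-0.66), 7 of 20 inner retinal neuron markers (-0.14) and 4 of 16 Müller glia and gliosis markers (-0.25) were called lower. The part of these in the nuclear result was not tested. The count of 13 became 0 when all 12 libraries shared a fit, when Xist was a covariate, or when APB5+Mino replicate 2, APB5+Mino replicate 3 (the only library of these high in Xist) or IgG+Mino replicate 3 was left out. Over all genes, calls in those fits numbered 0, 0, 0, 2 and 5.

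Ndufv3 (GRCm39 chr17:31739052-31751735, plus strand), a small subunit beside the NADH-oxidising site of complex I, had the smallest p. It measured 139.9, 117 and 119 CPM in IgG+Mino and 91.8, 85.0 and 82.9 CPM in APB5+Mino, without overlap (-0.54 ± 0.09 on the log2 scale, edgeR adjusted p = 0.0190). Cox4i2 measured 36.0, 24.0 and 27.4 CPM in IgG+Mino and 18.7, 16.6 and 17.6 CPM in APB5+Mino (-0.73 ± 0.15, adjusted p = 0.0269 by edgeR). Ndufa13, Ndufa4 and Ndufa7 followed with -0.58, -0.52 and -0.51. Ndufa4 was long counted with complex I and is now placed in complex IV. Of the mitochondrial members CYTB did not overlap, at 6778 to 7796 CPM in IgG+Mino and 8324 to 9156 CPM in APB5+Mino (0.21 ± 0.08, adjusted p = 0.125 by edgeR).

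**Figure D4:**
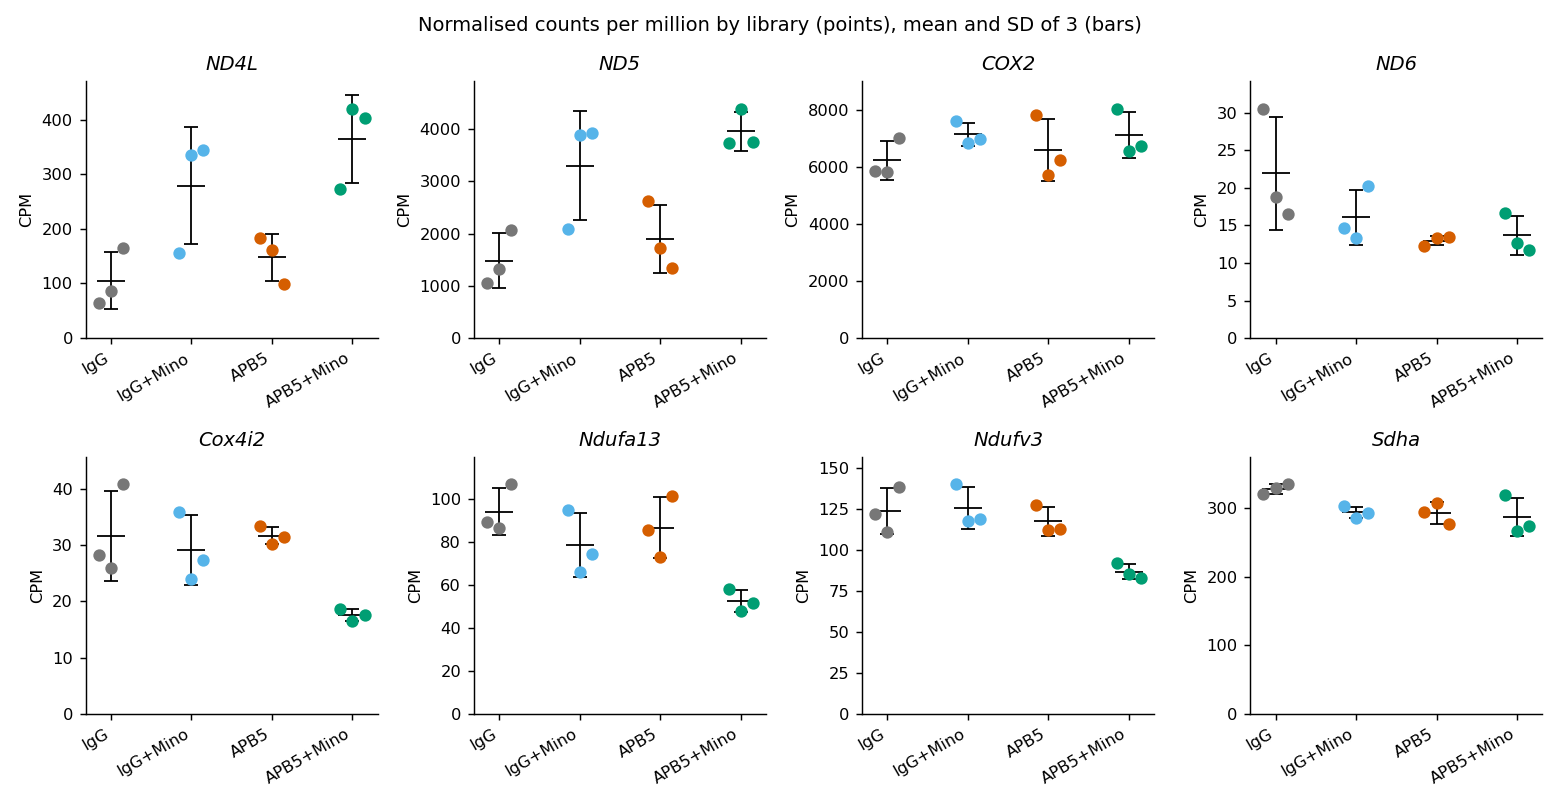
CPM of 8 members, 1 point per library, with the mean and SD of 3. ND4L and ND5 sit higher in APB5+Mino than in APB5, Cox4i2, Ndufa13 and Ndufv3 sit lower, and COX2, ND6 and Sdha overlap.

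APB5 against IgG compares the antibodies without minocycline. No member was called, nor was any of the 20350 genes tested (0%) by edgeR, and DESeq2 called no member either, beside 0.482% of all genes. Groups did not overlap in 0 mitochondrial and 4 nuclear members on the higher side (7.84% of all genes) and in 1 and 8 on the lower side (7.86%). Without adjustment, 1 mitochondrial member was lower and 4 nuclear members were higher at p under 0.05, beside 2.01% and 5.22% of all genes in those directions, so the nuclear share was near the background. In the same comparison groups did not overlap on the higher side in 9 of 16 Müller glia and gliosis markers and 6 of 18 microglia and macrophage markers, and on the lower side in 7 of 20 rod markers, and their part was not tested. The mitochondrial median was 0.24, with 12 of 13 values positive, and was -0.02 when APB5 replicate 1 was left out. The nuclear median was -0.11, with 67 of 84 negative. ND6 had the lowest mitochondrial value, at 30.6, 18.9 and 16.5 CPM in IgG and 12.3, 13.3 and 13.4 CPM in APB5 (-0.75 ± 0.24, adjusted p = 0.664 by edgeR).

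The interaction of antibody and minocycline, which tests whether the minocycline difference is unequal on the 2 backgrounds, called no member by edgeR, beside 0.0141% of all 21228 genes. At an unadjusted p under 0.05, 0 mitochondrial and 8 of 84 nuclear members passed, all with a negative term, beside 9.08% of all genes with one, so the nuclear share was near the background. DESeq2 called 0 and 1, beside 3.38% of all genes. The median interaction term was -0.09 over the mitochondrial and -0.32 over the nuclear members, and that of the mitochondrial members turned to 0.25 with Xist as a covariate.

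The muscle and heart isoforms Cox8b and Cox6a2 were high in a single library. Cox8b measured 1.68, 1.93 and 1.05 CPM in IgG, 0.837, 0.881 and 1.32 CPM in IgG+Mino, 2.58, 1.99 and 34.4 CPM in APB5, and lastly 0.286, 0.195 and 0.527 CPM in APB5+Mino. Cox6a2 measured 0.343, 0.602 and 3.50 CPM in APB5, against 0.123 to 0.311 CPM elsewhere. Both were highest in APB5 replicate 3, and neither was called in APB5 against IgG (3.04 and 2.65 on the log2 scale, edgeR adjusted p = 0.664 for both) or in APB5+Mino against APB5 (-5.14 ± 1.31 and -2.66 ± 0.91). Cox8b was called lower in APB5+Mino against IgG+Mino (-1.49 ± 0.39, adjusted p = 0.0439).

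The summed skeletal and heart muscle markers were 72.6 CPM in APB5 replicate 3 and 27.1 to 46.2 CPM in the other 11 libraries. Creatine kinase (Ckm) and myoglobin (Mb), defining genes of muscle, had 14 and 10 counts in APB5 replicate 3, within the 8 to 73 and 2 to 18 counts of the others. Myh7, a myosin of heart and slow muscle, had 98 counts there, above the 21 to 56 counts of the others. Cox7a1 ran from 0.780 to 2.51 CPM and Cox6b2, the testis isoform, from 4.28 to 6.98 CPM over the 12 libraries. Cox7b2 and Cox8c had at most 0.106 and 0.0183 CPM.

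**Figure D5:**
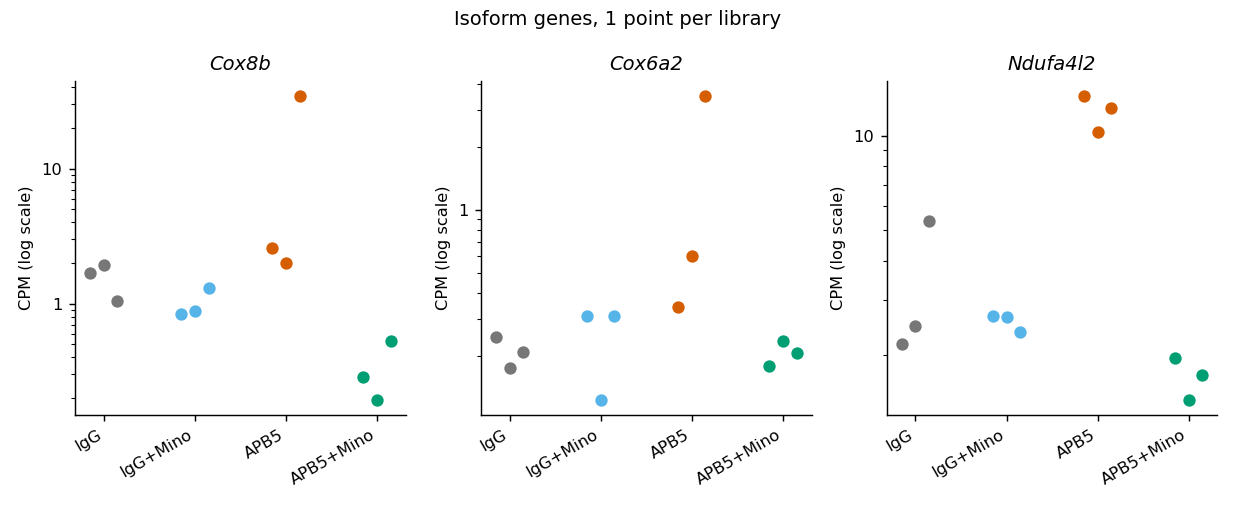
CPM on a log scale of Cox8b, Cox6a2 and Ndufa4l2, 1 point per library. Cox8b and Cox6a2 peak in APB5 replicate 3 at 34.4 and 3.50 CPM, and Ndufa4l2 is at 10.3 to 13.4 CPM in all APB5 libraries.

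Ndufa4l2, a paralogue of Ndufa4 that hypoxia induces and that marks pericytes of the central nervous system, is no member by the rule. It measured 2.17, 2.48 and 5.36 CPM in IgG, 2.66, 2.64 and 2.37 CPM in IgG+Mino, 13.4, 10.3 and 12.3 CPM in APB5, and lastly 1.96, 1.44 and 1.73 CPM in APB5+Mino. All APB5 libraries lay above all others. It fell in APB5+Mino against APB5 (-2.79 ± 0.20, edgeR adjusted p = 0.0203), and was not called in APB5 against IgG (1.85 ± 0.36, adjusted p = 0.664).

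Of the machinery that makes mitochondrial RNA, Polrmt, the mitochondrial RNA polymerase, rose in APB5+Mino against APB5 (37.9, 37.2 and 28.4 CPM without minocycline, 56.1, 49.95 and 55.5 CPM in APB5+Mino, 0.64 ± 0.13, edgeR adjusted p = 0.0493). Tfam, which packages and activates mitochondrial DNA, fell (32.4, 30.8 and 28.2 CPM without minocycline, 22.7, 22.0 and 21.3 CPM in APB5+Mino, -0.47 ± 0.10, adjusted p = 0.0476). Lrpprc, which stabilises mitochondrial mRNA, and Ppargc1a, a coactivator of mitochondrial biogenesis, had 0.09 and 0.13 with overlapping groups.

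Calls in other mitochondrial gene lists in the same comparison are read against the 2.79% of all genes called higher and the 2.03% called lower. They numbered 0 higher and 2 lower of 45 chain assembly factors (median -0.14), 1 and 1 of 20 genes of mitochondrial DNA maintenance and transcription (0.16), 0 and 2 of 20 for RNA processing and stability (0.26), 0 and 0 of 20 translation factors (0.07) and 1 and 0 of 12 biogenesis regulators (0.16). They numbered 0 and 1 of 78 mitochondrial ribosomal proteins (-0.25), 0 and 1 of 27 membrane carriers and import genes (-0.26), 0 and 0 of 22 genes of the TCA cycle (-0.15), 1 and 0 of 20 genes for electron carriers and other entry points (0.00), and 1 and 3 of 23 mitochondrial stress response genes (-0.36). In the stress response list, named after their values were seen, the protease Lonp1 rose, and the chaperonin Hspe1 and the stress genes Ddit3 and Trib3 fell. Among 12 hypoxia isoform and regulator genes of the chain, a list that also holds members, 1 was called higher (Lonp1 again) and 2 lower (Cox4i2 and Ndufa4l2), with a median of -0.54. Differences between these lists and the chain were not tested.

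Nuclear chain genes are known targets of the factors NRF1, GABPA and other ETS proteins, YY1 and the estrogen-related receptors. RefSeq promoters of 300 bases, 250 before and 50 after the start, in build GRCm38.p6, were matched for 69 of 86 nuclear members. On either strand, GCATGCGC (NRF1) stood in 14.5% of members and 3.05% of 27025 genes, CCGGAAGT (ETS) in 7.25% and 4.31%, AAGATGGCG (YY1) in 10.1% and 1.64%, and TCAAGGTCA (estrogen-related receptors) in 2.90% and 0.466%. For each motif the holder with the highest mean CPM is shown to place the letters, with the motif or its reverse complement in capitals.
Uqcrc1, chr9:108936667-108936696, plus strand: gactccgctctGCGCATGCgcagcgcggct
Cox8a, chr19:7217604-7217633, minus strand: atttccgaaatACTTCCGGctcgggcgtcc
Atp5j2, chr5:145191499-145191528, minus strand: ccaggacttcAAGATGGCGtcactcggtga
Atp5g3, chr2:73911359-73911388, minus strand: tgttacaaagTGACCTTGAgcgtcttcccc
These start 31 bases after, 6 before, 24 after and 52 before the start site. The 23 members holding any motif had a median of -0.57 on the log2 scale in APB5+Mino against APB5, and the 45 tested members without one had -0.54. A match of letters is not a binding site.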

How the data were processed

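RNA of retinas was sequenced from strand-specific poly-A libraries. Per the labels and the study's methods, the authors converted reads with bcl2fastq 2.20, and DRAGEN's RNA pipeline mapped these to mm39 with its NCBI annotation. The pipeline's version and its use of strand in counting are not given in the sources used here. The values deposited are raw counts of reads per gene, with no normalization, and the APB5 columns, which the table holds again, were read once.

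Genes were filtered with filterByExpr, scaled by TMM and tested with edgeR 4.0.16 (R 4.3.3), quasi-likelihood, 2-sided, using the libraries of the 2 groups compared, and all 12 for the interaction. Benjamini-Hochberg adjustment covered all genes tested. CPM used TMM factors of all 12 libraries. Fold changes carry a prior count of 2. The code was tested on simulated data. DESeq2 1.42.0, other scalings, filters, dispersion, the replicate block, Xist, and each library left out were alternatives. A correction for transcript length and GC content was chosen after seeing the data.

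By replicate number APB5 and APB5+Mino were taken as paired, since every same-number correlation of deviations was over 0.1 (0.119 to 0.169, others -0.133 to 0.0113). No other comparison had every same-number correlation over 0.1. The labels state no pairing, and these correlations are weak. Replicate 3 was the library high in Xist in both groups, and what the shared number reflects was not tested. Positions are from GENCODE on GRCm39, where 97 of 99 members matched.

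Named genes were all mitochondrial members, the 2 most abundant nuclear members of each complex, up to 5 called nuclear members per direction with the smallest p, tissue isoforms, X-linked members and 5 related genes, and 1 result under this rule is not reported here. Members and lists were chosen with earlier results of these data known.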

Additional observations from a re-analysis of the deposited data

Results flagged for a closer look

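Cox8b had log2 fold changes of opposite sign with the antibody in untreated and in minocycline-treated retinas. Every APB5 library lay above every IgG library (log2 fold change 3.04), and every APB5+Mino library lay below every IgG+Mino library (-1.49). The untreated groups nearly met, at 1.99 CPM in APB5 replicate 2 and 1.93 CPM in IgG replicate 2. The interaction term, which tests the difference between these effects, was -4.53 ± 1.30 and was not called (adjusted p = 0.161 by edgeR). Without APB5 replicate 3, which held 34.4 CPM, the first value was 0.55.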

How the results depend on the processing

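Of 74 gene and comparison pairs, 68 kept their direction under every alternative run. In APB5+Mino against APB5 the count of mitochondrial and nuclear calls, 1 and 10, was 6 and 59 with DESeq2, 6 and 67 at an unadjusted p under 0.05, 6 and 56 with Xist as a covariate, 4 and 54 in all 12 libraries, 2 and 31 with at least 10 counts in every library, 0 and 1 with the length and GC correction, 0 and 0 with library size only, with the replicate block or with both corrections. It was 3 mitochondrial in libraries low in Xist, 2 without a filter, and 1 nuclear at 2-fold. Over all genes, in either direction, 5128 of 20281 were called with DESeq2 and 7282 passed unadjusted. With Xist as a covariate 5562 of 21228 genes were called, and 4463 in all 12 libraries. At least 10 counts gave 1631 of 18212, length and GC 228 of 18598, low Xist 1900 of 20302 and no filter 1261 of 33206. The nuclear median was -0.37 with the length and GC correction. In APB5+Mino against IgG+Mino, 13 nuclear calls became 57 (DESeq2), 71 (unadjusted), 0 (Xist covariate, all 12 libraries, or libraries low in Xist, the same fit as without APB5+Mino replicate 3), 30 (at least 10 counts), 34 (length and GC), 68 (the same with the block), 70 (block), 3 (library size), 23 (mitochondrial reads left out), 45 (no filter), 21 (robust) and 1 (2-fold), and 0 mitochondrial calls became 1 (unadjusted, block, length and GC with block). Over all 20049 genes there, counts were 3532 (DESeq2), 5868 (unadjusted), 4045 (block), 1576 (library size), 1749 (mitochondrial reads left out) and 1816 (robust). They were 1969 of 18228 (at least 10 counts), 2392 of 18381 (length and GC), 3587 of 18381 (the same with the block) and 2311 of 32560 (no filter). In IgG+Mino against IgG, 0 mitochondrial calls became 11 (unadjusted) and 3 (DESeq2, no filter, length and GC with block), the median was 0.34 with Xist, and 0 nuclear calls became 11 (unadjusted). Counts over all genes there were 1686 of 20143 (unadjusted), 55 of 20143 (DESeq2), 16 of 32676 (no filter) and 9 of 18509 (length and GC with block). In APB5 against IgG, 0 calls became 1 mitochondrial and 4 nuclear (unadjusted) and 2 nuclear (Xist), beside 1472 of 20350 (unadjusted) and 1519 of 21228 (Xist) over all genes. Interaction calls of nuclear members were 8 (unadjusted), 1 (DESeq2) and 2 (Xist), and the mitochondrial median was 0.25 with Xist. Of all 21228 genes, 3640 (unadjusted), 717 (DESeq2) and 1021 (Xist) passed in either direction. The log2 ratio of the mitochondrial share was 0.35, and 0.85 over nuclear counts or 0.56 without COX1 to COX3, in APB5+Mino against APB5, 0.74 over nuclear counts in IgG+Mino against IgG, and 0.44 in APB5+Mino against IgG+Mino.

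With each library left out, APB5+Mino against APB5 gave 0 to 5 mitochondrial and 0 to 61 nuclear calls, with medians of 0.21 to 0.57 and -0.65 to -0.47. APB5+Mino against IgG+Mino gave 0 to 1 and 0 to 34, medians 0.04 to 0.14 and -0.52 to -0.29. IgG+Mino against IgG gave 0 to 2 mitochondrial calls, medians 0.48 to 0.85 and -0.34 to -0.12. Over all genes, calls in these comparisons ran from 0 to 5484, from 0 to 3358 and from 6 to 13, in that order. APB5 against IgG had medians of -0.02 to 0.46 and -0.17 to -0.01, and the interaction -0.37 to 0.17 and -0.42 to -0.17. The log2 share ratios were 0.24 to 0.51, 0.07 to 0.15, 0.37 to 0.66 and 0.09 to 0.43 in the same order of comparisons.

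Of the pairs, 6 turned, all in APB5+Mino against APB5. With the length and GC correction, without and with the block, Ndufv1 was 0.17 and 0.18, Sdha 0.056 and 0.056, and Uqcrc1 0.076 and 0.091. Ppargc1a was -0.015 with the correction alone. ND6 was -0.019 with library size only, and in libraries low in Xist Ppargc1a was -0.069 and Lrpprc -0.066. With a library left out, ND6 ran from -0.088 to 0.18, Ndufv1 from -0.12 to 0.012, Sdha from -0.11 to 0.020, Ppargc1a from -0.083 to 0.30 and Lrpprc from -0.060 to 0.20. The causes were not tested.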
